A study of Mus musculus with 36 samples.

Results

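Described here are 7 matricellular and crosslinking genes of the extracellular matrix: Postn, Tnc, Vcan, Spp1, Lox, Sparc and Fn1. They were taken as the probe sets of the deposited value table that the platform annotation pairs with one of these symbols. This gave 8 of the 12488 probe sets and 6 of the 7 genes, while Spp1 was not analysed here. Postn, Vcan, Sparc and Fn1 had 1 probe set each, and Tnc and Lox had a brighter and a dimmer one (mean log2 signal 9.70 and 7.85 for Tnc, 10.28 and 8.62 for Lox). Of the 8 probe sets 7 were bright enough to be tested, and the dimmer one of Tnc was not. Where no probe set is named, Tnc and Lox stand for the brighter one. In GRCm38.p6 the genes lie at chr3:54359267-54391041 (Postn, NCBI gene 50706), chr4:63959785-64047015 (Tnc, gene 21923), chr13:89655309-89743027 (Vcan, gene 13003), chr18:52516060-52529867 (Lox, gene 16948), chr11:55394159-55420080 (Sparc, gene 20692) and chr1:71585473-71653280 (Fn1, gene 14268). Where in each gene its probes lie was not analysed here.

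RNA was measured on MG_U74Av2 arrays in male mice aged 8 weeks of the strains mdx, mdx5cv and C57BL10. Both mdx and mdx5cv carry a point mutation in Dmd, the gene of dystrophin, and C57BL10 mice carry none. Within each strain 6 muscles were sampled, which makes 18 groups of 2 samples: soleus, TA (tibialis anterior), quadriceps, gastroc (gastrocnemius), EDL (extensor digitorum longus) and diaphragm. Each sample was RNA pooled from 5 mice. The labels name no separate pools for samples 1 and 2, so p-values measure only the spread between these samples.

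Matricellular proteins such as periostin, tenascin-C, osteopontin and SPARC are secreted into the matrix and act on cells and on fibre assembly more than as structural elements. Versican is a large proteoglycan that binds hyaluronan, fibronectin is a fibrillar scaffold on which other matrix proteins assemble, and lysyl oxidase crosslinks collagen and elastin. In muscle that lacks dystrophin, fibres go through cycles of damage and repair, and the matrix between them is remodelled. In bulk muscle RNA, more cells of a type and more RNA per cell cannot be told apart.

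The columns of mdx gastroc sample 2 and mdx5cv gastroc sample 1 held the same 12488 values as quadriceps columns (mdx sample 2 and mdx5cv sample 1). Both gastroc columns were left out, which left 34 arrays and a single array in mdx gastroc and in mdx5cv gastroc. Dmd itself had a signal of 104.2 to 586.5 in mdx, 158.5 to 518.8 in mdx5cv and 368.6 to 1928 in C57BL10, and these overlapping ranges do not check the labels. The experiment files of 4 mdx5cv arrays (sample 1 of diaphragm, EDL, quadriceps and soleus) describe the mice as mdx, and the description of mdx EDL sample 1 names mdx5cv. All 5 were grouped by title and source name. Low correlations marked C57BL10 TA sample 2 (median Spearman correlation across probe sets of 0.621 with the other arrays) and sample 2 of the mdx5cv quadriceps (0.769) against 0.835 to 0.934 in the other 32. The low end of the signals was also raised on both, with a 1st percentile of 217.7 and 142.3 against 6.0 to 29.5. The part of this in the signals of dim probe sets was not tested. The scanning periods read from 30 experiment files were uneven. In the third period 5 mdx, 6 mdx5cv and 4 C57BL10 arrays were scanned. In the second were 5 mdx and 4 mdx5cv arrays, in the first 5 C57BL10 arrays and in the fourth 1. Fits with the period as a block used only these 30 arrays. They thus lacked C57BL10 diaphragm sample 2, C57BL10 TA sample 2, mdx TA sample 1 and mdx5cv TA sample 2. The 3'/5' signal ratio of the actin probe sets, a sign of RNA integrity, was 1.10 ± 0.343 in mdx (SD, n = 11), 1.03 ± 0.126 in mdx5cv (SD, n = 11) and 0.768 ± 0.114 in C57BL10 (SD, n = 12). That of GAPDH was 1.345 ± 0.894 in mdx, 1.097 ± 0.355 in mdx5cv and 1.044 ± 0.269 in C57BL10 (SD, same n), and the part of these ratios in the results was not tested.

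The promoter windows of Postn, Tnc and Vcan are shown because these 3 genes passed a joint test over the muscles in the main fit. It asks whether the difference between mutant and C57BL10 varies from muscle to muscle. Postn and Vcan missed the threshold with quantile normalization, and Tnc with the scanning period as a block. A link between these sequences and the differences was not tested. The RefSeq table held windows for 4 of the 6 measured genes. Each line gives the 250 bases before an annotated start, read 5′ to 3′ on the gene's strand from RefSeq (GRCm38.p6), at chr3:54360857-54361106 (plus strand), chr4:64046937-64047186 (minus strand) and chr13:89742513-89742762 (minus strand). Where the table held 2 starts (Postn and Tnc), the one nearest the end of the gene was taken. Capitals mark TATAA (the core of a TATA box) and CAGAC (a SMAD-binding element), searched on both strands.
Postn: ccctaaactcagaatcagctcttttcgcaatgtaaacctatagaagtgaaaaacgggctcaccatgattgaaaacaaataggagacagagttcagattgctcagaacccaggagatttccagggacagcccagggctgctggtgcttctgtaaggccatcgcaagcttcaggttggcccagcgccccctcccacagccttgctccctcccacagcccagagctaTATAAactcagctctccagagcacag
Tnc: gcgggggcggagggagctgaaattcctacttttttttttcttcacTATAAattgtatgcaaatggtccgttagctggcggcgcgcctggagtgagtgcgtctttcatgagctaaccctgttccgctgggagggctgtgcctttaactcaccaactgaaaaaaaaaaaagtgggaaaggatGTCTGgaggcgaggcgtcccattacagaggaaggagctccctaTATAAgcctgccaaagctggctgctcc
Vcan: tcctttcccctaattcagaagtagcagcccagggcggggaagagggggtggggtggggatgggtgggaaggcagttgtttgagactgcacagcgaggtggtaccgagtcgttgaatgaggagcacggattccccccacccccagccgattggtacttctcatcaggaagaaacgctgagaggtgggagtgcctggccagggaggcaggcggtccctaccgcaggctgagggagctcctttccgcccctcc
The Postn window held 1 TATAA, which begins at position -26 relative to the start. The Tnc window held 2, which begin at -205 and -27, and 1 CAGAC on the opposite strand at -70. The Vcan window held neither motif. TGANTCA, the AP-1 site, was in none of the 3 windows. Over all 32851 windows of the same length, 22.8% held TATAA, 42.2% held CAGAC and 6.75% held TGANTCA.

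Postn encodes periostin, a matricellular protein that binds collagen and integrins, and it was the member with the largest difference. Over all muscles its signal lay between 4345 and 20925 in mdx (median 9920, n = 11) and between 7423 and 20636 in mdx5cv (median 11145, n = 11), against 686.6 to 4265 in C57BL10 (median 1006, n = 12). Every mdx array and every mdx5cv array was above every C57BL10 array. This held for 0.577% of the 7453 tested probe sets in mdx and for 0.979% in mdx5cv. Averaged over the muscles with equal weight, Postn rose by 3.08 ± 0.13 in mdx (log2 difference ± limma standard error, adjusted p = 4.3e-14, 8.45-fold). In mdx5cv it rose by 3.27 ± 0.13 (limma adjusted p = 2.2e-14, 9.67-fold).

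The size of this rise differed between the muscles in the main fit. It was smallest in the soleus, where the level of Postn in C57BL10 was highest. In the diaphragm, the Postn signal was 14407 and 20925 in mdx and 20636 and 18200 in mdx5cv, against 1066 and 1102 in C57BL10. In the soleus it was 8930 and 9367 in mdx and 14878 and 17556 in mdx5cv, against 3731 and 4265 in C57BL10. The mutant soleus arrays thus lay within the range of the other mutant muscles, while both C57BL10 soleus arrays lay above all 10 other C57BL10 arrays. In the TA the signal was 5702 and 4345 in mdx and 7927 and 8860 in mdx5cv, against 1396 and 850.4 in C57BL10. The mdx TA arrays were the lowest of all mdx arrays. In the quadriceps the signal was 11491 and 15582 in mdx and 13909 and 7423 in mdx5cv, against 937.8 and 946.4 in C57BL10. In the EDL it was 9920 and 9335 in mdx and 8546 and 8722 in mdx5cv, against 731.4 and 1298 in C57BL10. In the gastroc it was 11225 in mdx and 11145 in mdx5cv, against 686.6 and 763.6 in C57BL10. Among the C57BL10 muscles other than the soleus, the EDL and TA pairs each spanned those of the quadriceps and the diaphragm, and the gastroc pair overlapped that of the EDL, so this part of the order is not resolved.

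For the mean of both mutants minus C57BL10, Postn rose in every muscle: by 4.08 ± 0.27 in the diaphragm, 3.95 ± 0.31 in the gastroc, 3.63 ± 0.27 in the quadriceps, 3.23 ± 0.27 in the EDL, 2.57 ± 0.27 in the TA and 1.61 ± 0.27 in the soleus (log2 ± SE, limma adjusted p between 5.7e-10 and 0.0014). Without C57BL10 soleus sample 1 the soleus value was 1.51 (limma adjusted p = 0.061). A joint F test of whether these differences vary over the 6 muscles passed for Postn (limma adjusted p = 0.0066), as it did for 0.671% of tested probe sets. The soleus difference minus the mean of the other 5 muscles was -1.88 ± 0.30 (log2, limma adjusted p = 0.0084), a contrast that passed downward in 0.0537% of probe sets. With either C57BL10 soleus sample left out this contrast kept its size but missed the threshold (-1.98, adjusted p = 0.091 without sample 1, and -1.79, adjusted p = 0.23 without sample 2), and likewise without the 5 arrays whose strain text conflicts (-1.77, adjusted p = 0.19).

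**Figure D1:**
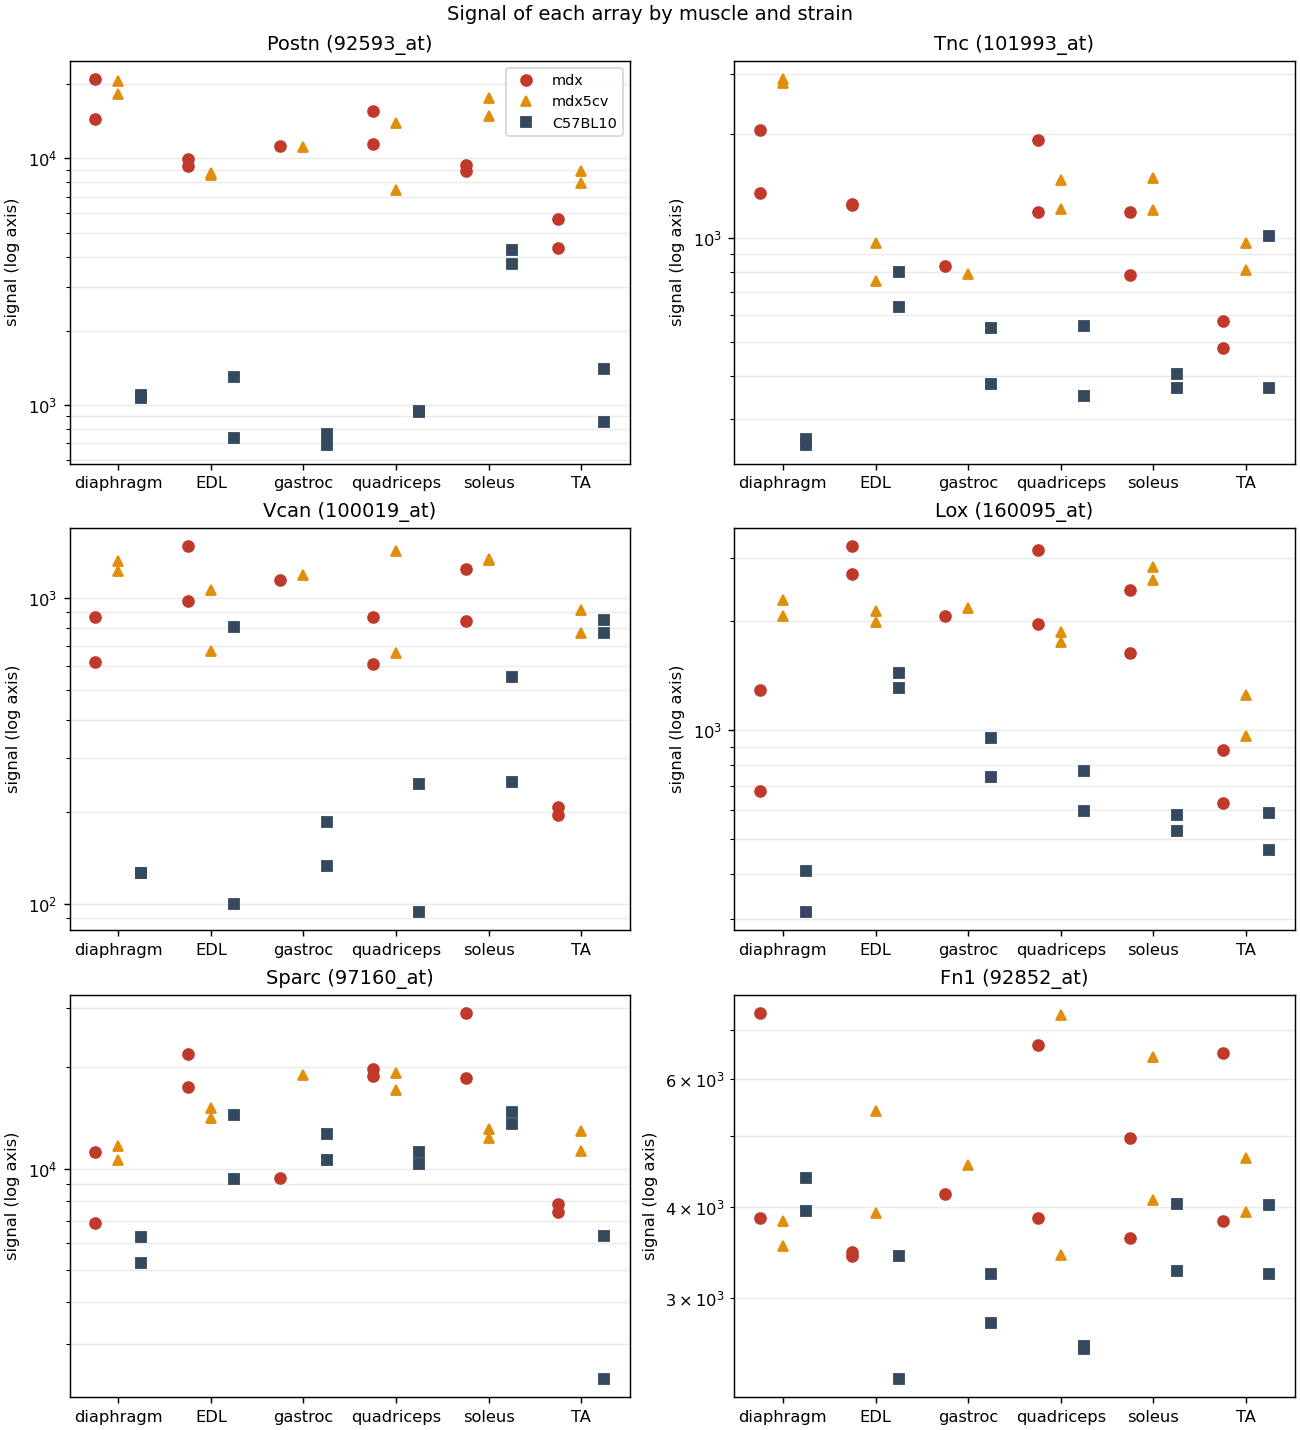
Signal of each array on a log axis for the 6 genes, by muscle, with mdx as circles, mdx5cv as triangles and C57BL10 as squares. Postn and Lox separate the mutant arrays from the C57BL10 arrays within all 6 muscles, and the C57BL10 soleus arrays stand at 3731 and 4265 for Postn.

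Tnc encodes tenascin-C, a matrix glycoprotein that is sparse in adult muscle apart from tendon and its junctions and is made at sites of injury. Its brighter probe set had a signal of 480.6 to 2059 in mdx (median 1192), 753.4 to 2886 in mdx5cv (median 1212) and 251.8 to 1016 in C57BL10 (median 391.1), so the strains overlapped over all muscles. Tnc rose by 1.21 ± 0.17 in mdx (log2 ± SE, limma adjusted p = 1.4e-05) and by 1.41 ± 0.17 in mdx5cv (limma adjusted p = 1.6e-06), averaged over the muscles. The dimmer probe set was at the floor of 118 on 1 mdx, 1 mdx5cv and 7 C57BL10 arrays. In a fit without the filter on mean signal it was higher by 0.60 ± 0.29 in mdx (limma adjusted p = 0.25) and by 1.00 ± 0.29 in mdx5cv (limma adjusted p = 0.034), both in the direction of the first probe set.

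The diaphragm carried the widest separation in Tnc. There its signal was 2059 and 1352 in mdx and 2810 and 2886 in mdx5cv, against 262.8 and 251.8 in C57BL10, which were the 2 lowest C57BL10 values among those of any muscle. In the TA it was 480.6 and 576.6 in mdx and 972.7 and 809.4 in mdx5cv, against 369.1 and 1016 in C57BL10, where the value of 1016 belongs to the low-correlation array. In the EDL it was 1256 and 1250 in mdx and 753.4 and 971.7 in mdx5cv, against 800.9 and 632.9 in C57BL10. Mutant and C57BL10 arrays overlapped in the TA and the EDL and did not overlap in the other 4 muscles. Of all tested probe sets the mutant arrays lay above the C57BL10 arrays without overlap in 17.8% in the diaphragm, 12.9% in the quadriceps, 11.7% in the soleus, 21.8% in the gastroc, 13.4% in the EDL and 9.66% in the TA. In the quadriceps Tnc was at 1190 and 1930 in mdx and 1478 and 1216 in mdx5cv, against 349.4 and 559.2 in C57BL10. In the soleus it was at 782.3 and 1192 in mdx and 1212 and 1497 in mdx5cv, against 404.7 and 368.5 in C57BL10. In the gastroc it was at 831.2 in mdx and 787.6 in mdx5cv, against 548.6 and 377.5 in C57BL10.

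Tnc rose by 3.08 ± 0.35 in the diaphragm (mutant minus C57BL10, log2 ± SE, limma adjusted p = 3.7e-06), by 1.69 ± 0.35 in the quadriceps (adjusted p = 0.0036) and by 1.56 ± 0.35 in the soleus (adjusted p = 0.017). It did not pass in the gastroc (0.83 ± 0.40, adjusted p = 0.52), the EDL (0.54 ± 0.35, adjusted p = 0.64) or the TA (0.16 ± 0.35, adjusted p = 0.81). The quadriceps call was lost without C57BL10 quadriceps sample 1 (1.35, adjusted p = 0.14). The soleus call was lost without any of 4 of its 6 arrays (1.41 to 1.63, adjusted p up to 0.24) and without the 5 arrays of conflicting strain text (1.64, adjusted p = 0.085). The diaphragm difference exceeded the mean of the other 5 muscles by 2.13 ± 0.39 (limma adjusted p = 0.012, a contrast that passed upward in 0.0537% of probe sets), and the joint F test passed (limma adjusted p = 0.02). With the period block the excess was 1.83 (adjusted p = 0.25). It was 2.16 without C57BL10 diaphragm sample 1 (adjusted p = 0.19), 2.10 without sample 2 (adjusted p = 0.18) and 2.12 without the 5 arrays of conflicting strain text (adjusted p = 0.098). The joint test missed the threshold without any of 5 of the 6 diaphragm arrays (adjusted p up to 0.13), with the period block (0.3) and without the arrays of conflicting strain text (0.17).

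Sparc encodes a calcium- and collagen-binding matricellular protein. Its signal was 6893 to 29027 in mdx (median 17459), 10612 to 19200 in mdx5cv (median 13095) and 2373 to 14768 in C57BL10 (median 10461), with broad overlap. Averaged over the muscles Sparc rose by 0.60 ± 0.15 in mdx (log2 ± SE, limma adjusted p = 0.006) and by 0.71 ± 0.15 in mdx5cv (limma adjusted p = 0.0014). Over the 4 muscles other than diaphragm and TA both calls were lost, at 0.50 in mdx (adjusted p = 0.079) with 0.41 in mdx5cv (adjusted p = 0.17), and the mdx call was also lost with the period as a block (0.55, adjusted p = 0.055). The lowest value, 2373, belongs to C57BL10 TA sample 2, the low-correlation array, and the other C57BL10 TA array was at 6319. In the TA the mutant arrays were at 7853 and 7450 in mdx and at 11237 and 12886 in mdx5cv. The TA was the muscle in which Sparc passed (1.31 ± 0.30, limma adjusted p = 0.013), but without C57BL10 TA sample 2 the value was 0.60 (adjusted p = 0.57), and without sample 1 it was 2.02 (adjusted p = 5.7e-05). In the soleus mdx was at 18522 and 29027 and mdx5cv at 13095 and 12324, against 13522 and 14768 in C57BL10. The mdx soleus arrays were thus above and the mdx5cv soleus arrays below those of C57BL10. The value of 29027 belongs to mdx soleus sample 2, which had the highest 3'/5' ratios of the 34 arrays (1.964 for actin and 3.445 for GAPDH), and the part of RNA quality was not tested. The differences in the other 5 muscles ran from 0.20 to 0.80 and did not pass (limma adjusted p of 0.13 or more). Without either C57BL10 TA array the quadriceps (0.80, adjusted p = 0.031) and the diaphragm (0.79, adjusted p = 0.05) passed.

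Vcan encodes versican. Its signal was 194.8 to 1480 in mdx (median 865.5), 662.7 to 1421 in mdx5cv (median 1193) and 94.1 to 847.6 in C57BL10 (median 216.1), and 2 C57BL10 arrays lay at the floor, so that differences that rest on these are understated. Averaged over the muscles it rose by 1.49 ± 0.26 in mdx (log2 ± SE, limma adjusted p = 2.0e-04) and by 2.02 ± 0.26 in mdx5cv (limma adjusted p = 3.5e-06). In the diaphragm Vcan was at 619.1 and 865.5 in mdx and 1223 and 1321 in mdx5cv, against 126.6 and 126.4 in C57BL10. In the gastroc it was at 1147 in mdx and 1193 in mdx5cv, against 132.5 and 185.1 in C57BL10. In both muscles every mutant array was far above both C57BL10 arrays. In the quadriceps it was at 867.8 and 609.4 in mdx and 1421 and 662.7 in mdx5cv, against 247 and 94.1 in C57BL10. In the soleus it was at 840.1 and 1241 in mdx and 1331 and 1343 in mdx5cv, against 550.8 and 250.3 in C57BL10. In the EDL it was at 1480 and 979.3 in mdx and 1065 and 674 in mdx5cv, against 100 and 805.1 in C57BL10, whose arrays thus disagreed by more than the mutants did.

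The TA differed from this pattern. There the Vcan signal was 194.8 and 206.9 in mdx and 915.7 and 766.6 in mdx5cv, against 847.6 and 769.9 in C57BL10. Both mdx arrays were below both C57BL10 arrays, and the mdx5cv arrays overlapped with the C57BL10 arrays. The C57BL10 TA arrays were, with C57BL10 EDL sample 2, the highest of the C57BL10 arrays. After these values were seen the mutants were tested one by one in the TA. There mdx minus C57BL10 was -2.01 ± 0.61 (95% interval -3.27 to -0.75, limma adjusted p = 0.082), where 0.738% of tested probe sets passed downward. Without either C57BL10 EDL array it passed (adjusted p = 0.024 and 0.025). The difference mdx5cv minus C57BL10 was 0.05 ± 0.61 (-1.21 to 1.31, adjusted p = 0.97), where 3.30% passed in either direction, and mdx5cv minus mdx was 2.06 ± 0.61 (0.80 to 3.32, adjusted p = 0.24), where 0.161% passed. The mean of both mutants minus C57BL10 in the TA was -0.98 ± 0.53 (adjusted p = 0.28).

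Vcan rose by 2.93 ± 0.53 in the diaphragm (mutant minus C57BL10, log2 ± SE, limma adjusted p = 0.0015), by 2.90 ± 0.61 in the gastroc (adjusted p = 0.0076) and by 2.30 ± 0.53 in the quadriceps (adjusted p = 0.0086). The EDL (1.72 ± 0.53, adjusted p = 0.096) and the soleus (1.65 ± 0.53, adjusted p = 0.16) did not pass. The soleus value passed without either C57BL10 EDL array (1.65, adjusted p = 0.034 and 0.037) and was 1.08 (adjusted p = 0.97) without C57BL10 soleus sample 2 and 2.22 (adjusted p = 0.22) without sample 1. The EDL value hung on the 2 C57BL10 arrays, at 100 and 805.1: it was 0.33 (adjusted p = 1) without sample 1 and 3.10 (adjusted p = 0.0015) without sample 2. The gastroc call was lost without C57BL10 gastroc sample 1 (2.66, adjusted p = 0.12), the quadriceps call without C57BL10 quadriceps sample 2 (1.77, adjusted p = 0.25) and without the arrays of conflicting strain text (2.03, adjusted p = 0.057), and the diaphragm call with the period as a block (2.80, adjusted p = 0.22). The TA difference minus the mean of the other 5 muscles was -3.28 ± 0.58 (log2, limma adjusted p = 0.0053, a contrast that passed downward in 0.617% of probe sets). It kept its call with each array left out in turn (-3.56 to -3.00) and missed it with quantile normalization (-2.43, adjusted p = 0.091) and with the period block (-3.14, adjusted p = 0.33). The joint F test for Vcan was close to the threshold (limma adjusted p = 0.046) and missed it in 27 of the 32 fits that left out 1 array. With quantile normalization it was far from the threshold (limma adjusted p = 0.62).

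Fn1 encodes fibronectin, which is also secreted by the liver in a plasma form. Its signal was 3420 to 7391 in mdx (median 3865), 3434 to 7331 in mdx5cv (median 4083) and 2322 to 4381 in C57BL10 (median 3250), and the strains overlapped. Fn1 was higher by 0.47 ± 0.16 in mdx (log2 ± SE, limma adjusted p = 0.047, 1.38-fold) and by 0.48 ± 0.16 in mdx5cv (limma adjusted p = 0.045, 1.39-fold). Both calls were at the edge of the threshold: the mdx call was lost in 22 of 32 fits that left out 1 array (0.39 to 0.55, adjusted p up to 0.11) and the mdx5cv call in 18 (0.38 to 0.57, adjusted p up to 0.099). In the quadriceps mdx was at 3855 and 6682 and mdx5cv at 3434 and 7331, against 2576 and 2553 in C57BL10, a difference of 0.98 ± 0.32 that did not pass (adjusted p = 0.083) but did without mdx quadriceps sample 1 (1.17, adjusted p = 0.034) or mdx5cv quadriceps sample 1 (1.25, adjusted p = 0.016). The value of 7331 belongs to the low-correlation mdx5cv quadriceps sample 2, without which the difference was 0.70 (adjusted p = 0.30). Over all fits that left out 1 array it was 0.70 to 1.25 (adjusted p up to 0.36). No muscle passed for Fn1.

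The diaphragm showed the smallest difference in Fn1 (0.09 ± 0.32, limma adjusted p = 0.96), with 3865 and 7391 in mdx and 3823 and 3528 in mdx5cv, against 4381 and 3947 in C57BL10. In the same arrays the summed signal of 13 liver markers was 420377 to 734401 in mdx, 206920 to 224716 in mdx5cv and 419853 to 422345 in C57BL10, while it was 6148 to 6444 in mdx EDL, 6395 to 7037 in mdx5cv EDL and 6608 to 6609 in C57BL10 EDL. Of the 13 markers, Alb, Apoh, Fgb, Fgg, Ahsg, F2 and Ambp were at the floor on every EDL array. In the TA, Fn1 was at 3826 and 6500 in mdx and 4666 and 3940 in mdx5cv, against 3238 and 4027 in C57BL10 (0.36 ± 0.32, adjusted p = 0.52), and the liver sum was 11903 to 11994 in mdx, 4883 to 8466 in mdx5cv and 30888 to 53419 in C57BL10. The part of liver transcripts in the Fn1 signal was not tested. Averaged over the 4 muscles other than diaphragm and TA, the Fn1 difference was 0.49 in mdx (adjusted p = 0.12), while mdx5cv had 0.70 (adjusted p = 0.021).

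Lox encodes lysyl oxidase, the enzyme that starts the crosslinking of collagen and elastin. Its brighter probe set had a signal of 630.1 to 3234 in mdx (median 1971), 961 to 2823 in mdx5cv (median 2070) and 313.9 to 1436 in C57BL10 (median 593.6). Within each of the 6 muscles every mutant array was above both C57BL10 arrays, as for Postn. Over all tested probe sets 1.49% did so in all 6 muscles. Lox rose by 1.34 ± 0.14 in mdx (log2 ± SE, limma adjusted p = 1.5e-07, 2.53-fold) and by 1.56 ± 0.14 in mdx5cv (limma adjusted p = 1.2e-08, 2.95-fold). The dimmer probe set disagreed: it was at 110.2 to 976.4 in mdx, 210 to 2114 in mdx5cv and 208.4 to 1032 in C57BL10, with differences of 0.02 ± 0.32 in mdx (limma adjusted p = 0.97), with 0.46 ± 0.32 in mdx5cv (limma adjusted p = 0.41). The largest of these values, 2114, belongs to the low-correlation mdx5cv quadriceps sample 2.

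In the soleus, Lox was at 1639 and 2438 in mdx and 2823 and 2600 in mdx5cv, against 524.4 and 581 in C57BL10. In the EDL it was at 2708 and 3234 in mdx and 2136 and 1994 in mdx5cv, against 1312 and 1436 in C57BL10. Mutant arrays of the 2 muscles overlapped, while the C57BL10 arrays of the EDL were the highest of all C57BL10 arrays. In the diaphragm it was at 1294 and 678.2 in mdx and 2070 and 2295 in mdx5cv, against 313.9 and 408.3 in C57BL10. In the quadriceps it was at 1971 and 3157 in mdx and 1873 and 1754 in mdx5cv, against 597.9 and 770 in C57BL10. In the TA it was at 878.9 and 630.1 in mdx and 1248 and 961 in mdx5cv, against 464.4 and 589.4 in C57BL10, the narrowest gap between mutant and C57BL10 arrays. Lox rose by 2.08 ± 0.28 in the soleus (limma adjusted p = 1.4e-04), 2.00 ± 0.28 in the diaphragm (9.4e-05), 1.65 ± 0.28 in the quadriceps (5.6e-04) and 1.34 ± 0.33 in the gastroc (0.024). The EDL (0.85 ± 0.28, adjusted p = 0.14) and the TA (0.79 ± 0.28, adjusted p = 0.11) did not pass. With quantile normalization the TA value was 1.85 (adjusted p = 0.0034), so its size depends on the normalization. The TA comparison includes C57BL10 TA sample 2, the low-correlation array with a raised low end of its signals. Without that array the TA value was 0.96, and its part in the change with quantile normalization was not tested. The gastroc call was lost without C57BL10 gastroc sample 1 (1.16, adjusted p = 0.31) or 2 (1.52, adjusted p = 0.066), with the period block (1.33, adjusted p = 0.054) and without the arrays of conflicting strain text (1.34, adjusted p = 0.081). A difference of the Lox response between muscles was not called (joint F test, limma adjusted p = 0.38).

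Counted over the tested probe sets of these genes, 6 of 7 rose in mdx and 6 of 7 in mdx5cv, and none fell. Over all 7453 tested probe sets 10% rose in mdx and 10.5% in mdx5cv, with median differences of -0.056 and 0.017 on the log2 scale. The probe set that did not pass was the dimmer one of Lox in both. The filter used the mean over all 34 arrays, mutants included. The C57BL10 group means of Vcan were 6.98 in the diaphragm, 7.29 in the gastroc, 7.41 in the quadriceps and 8.26 in the EDL. These lie below the filter of 8.45, against 8.54 in the soleus and 9.66 in the TA. Vcan was thus tested only through the mutant arrays, where it was higher, and its part in the counts is not independent support. The comparisons share the C57BL10 arrays and are not independent of each other. The third scanning period held no C57BL10 array of the diaphragm or TA and was fitted with effects of strain and muscle. Its values are thus not averages with equal weight over the 6 muscles. Within this period alone, Postn was higher by 2.80 in mdx (limma adjusted p = 7.9e-04), with 2.98 in mdx5cv (adjusted p = 1.3e-04). For mdx the other values there were 1.56 for Vcan (adjusted p = 0.14), 1.37 for Lox (0.087), 1.11 for Tnc (0.13), 0.92 for Fn1 (0.12) and 0.77 for Sparc (0.22), none of which passed. For mdx5cv Vcan (2.15, adjusted p = 0.02), Lox (1.63, adjusted p = 0.02) and Tnc (1.26, adjusted p = 0.047) passed there, and Fn1 (0.81, adjusted p = 0.12) and Sparc (0.62, adjusted p = 0.26) did not. With the period as a block Vcan in mdx was 1.37 (adjusted p = 0.05), and Fn1 was 0.82 in mdx (0.0085) and 0.69 in mdx5cv (0.017). Without the 5 arrays of conflicting strain text, Postn was 3.07 and 3.21, Vcan 1.44 and 1.89, Lox 1.36 and 1.54, Tnc 1.21 and 1.45, Sparc 0.63 and 0.69, and Fn1 0.47 and 0.65 in mdx and mdx5cv, and of these values Fn1 in mdx alone missed the threshold (adjusted p = 0.061). With quantile normalization Fn1 missed it in both mutants, at 0.39 in mdx (0.19) and 0.45 in mdx5cv (0.13).

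**Figure D2:**
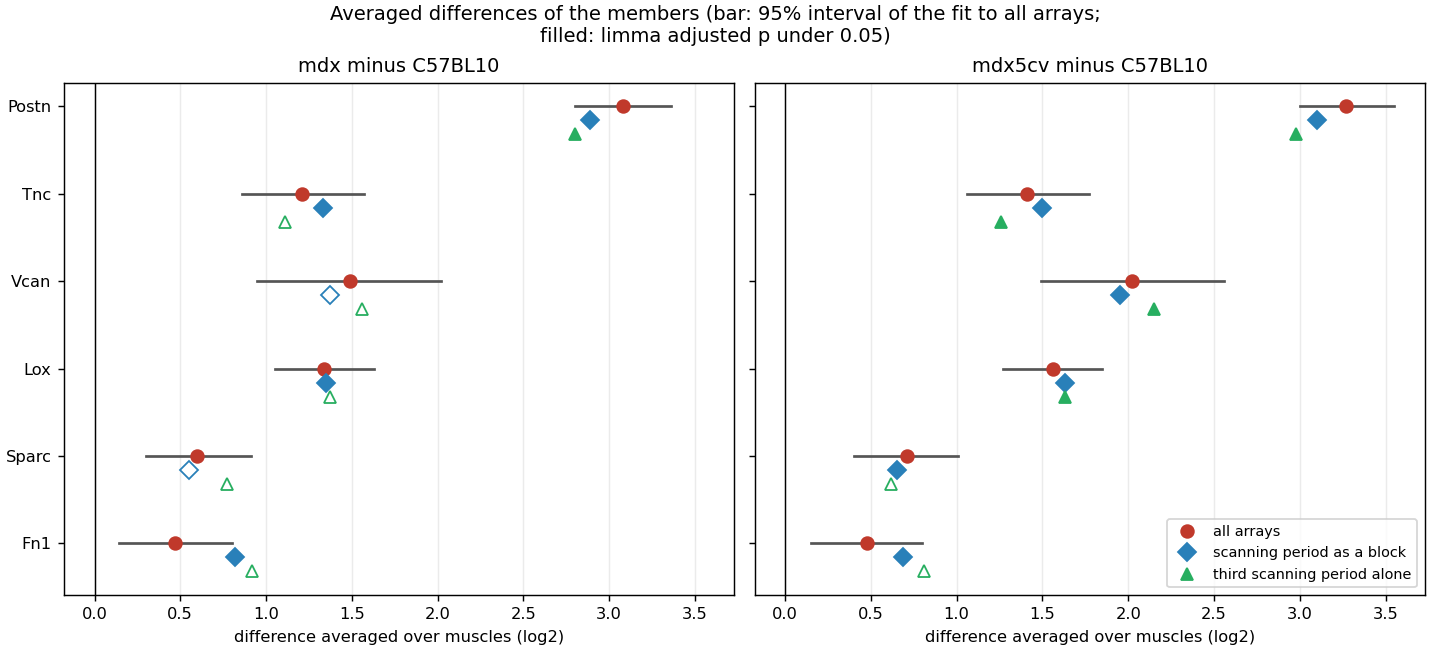
Log2 difference averaged over the muscles for mdx minus C57BL10 (left) and mdx5cv minus C57BL10 (right), with the 95% interval of the fit to all 34 arrays. Diamonds have the scanning period as a block. Triangles use the third period alone, which has no C57BL10 array of the diaphragm or TA, and are not averages over all muscles. Postn lies near 3 under every setting shown, and Sparc and Fn1 lie between 0.47 and 0.92.

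Markers of 2 other cell types moved with the strains as the members did. The summed signal of 12 macrophage markers was 23167 to 72191 in mdx (median 61373), 28117 to 68645 in mdx5cv (median 45193) and 8550 to 18549 in C57BL10 (median 9967), and all 9 tested markers rose in both mutants. Of these markers Adgre1 and Itgam were at the floor on both C57BL10 arrays of the EDL and of the quadriceps, and Itgam also on both arrays of mdx soleus, mdx5cv TA and C57BL10 gastroc. The summed signal of 10 fibroblast markers was 83131 to 225599 in mdx (median 170042), 106034 to 176825 in mdx5cv (median 135730) and 29204 to 124128 in C57BL10 (median 77121), and 9 of 10 rose in both, with Dcn, named after its values were seen, as the exception (0.28, limma adjusted p = 0.28, and 0.11, adjusted p = 0.77). In the soleus the macrophage sum was 23167 to 25463 in mdx, 39234 to 43829 in mdx5cv and 9560 to 10575 in C57BL10, lowest in the mdx soleus among the mdx muscles, and the fibroblast sum was 150542 to 198975, 133455 to 143968 and 74415 to 94182 in the same groups. In the TA the fibroblast sum was 83131 to 97953 in mdx, 110780 to 115551 in mdx5cv and 29204 to 54573 in C57BL10. Postn, Tnc, Vcan, Lox, Sparc and Fn1 can all be made by fibroblasts, and the part of these cells in the differences was not tested. All 7 endothelial markers tested stayed short of the threshold in both mutants. Of 9 markers of the muscle fibre itself 1 fell in each mutant, and the summed signal was 300489 to 1273507 in mdx, 292935 to 664021 in mdx5cv and 302376 to 968949 in C57BL10. Of 4 tested tendon and cartilage markers 1 fell in mdx and 0 moved in mdx5cv, of 6 of smooth muscle and pericytes 1 rose and 2 fell in mdx and 1 rose and 1 fell in mdx5cv, of 9 of liver 0 moved in mdx and 2 fell in mdx5cv, and of 3 of erythroid cells 1 fell in mdx and 2 fell in mdx5cv.

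Set against each other, mdx5cv and mdx gave no call in the 7 tested probe sets at a limma adjusted p of 0.05. Of all tested probe sets 0.523% were called. At so low a share, no call among 7 probe sets is not a result particular to the members. The difference mdx5cv minus mdx was 0.54 for Vcan (95% interval -0.02 to 1.09, limma adjusted p = 0.50), 0.22 for Lox (-0.08 to 0.52), 0.20 for Tnc (-0.17 to 0.57), 0.19 for Postn (-0.09 to 0.48), 0.10 for Sparc (-0.21 to 0.42) and 0.01 for Fn1 (-0.33 to 0.35). These intervals leave room for a difference of about the size given by their bounds.

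By muscle, 4 of the 7 tested probe sets rose in the diaphragm (Postn, Tnc, Vcan and Lox), where 2.29% of all tested probe sets rose. The same 4 rose in the quadriceps (background 3.92%). In the gastroc 3 rose (Postn, Vcan and Lox, background 2.15%), in the soleus 3 (Postn, Tnc and Lox, background 1.38%), in the TA 2 (Postn and Sparc, background 3.25%) and in the EDL 1 (Postn, background 2.27%). None fell in any muscle. In the joint test 3 of 7 passed, Postn, Tnc and Vcan (background 0.671%), of which Vcan missed the threshold in 27 of the 32 fits that left out 1 array and Tnc in 5. Against the mean of the other 5 muscles, the soleus passed for Postn, the diaphragm for Tnc and the TA for Vcan. The diaphragm nevertheless had the largest rise for all 3 (4.08, 3.08 and 2.93). For Postn and Vcan the gastroc was close to it (3.95 and 2.9). The TA was lowest for Tnc (0.16) and Vcan (-0.98), and the soleus for Postn (1.61).

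**Figure D3:**
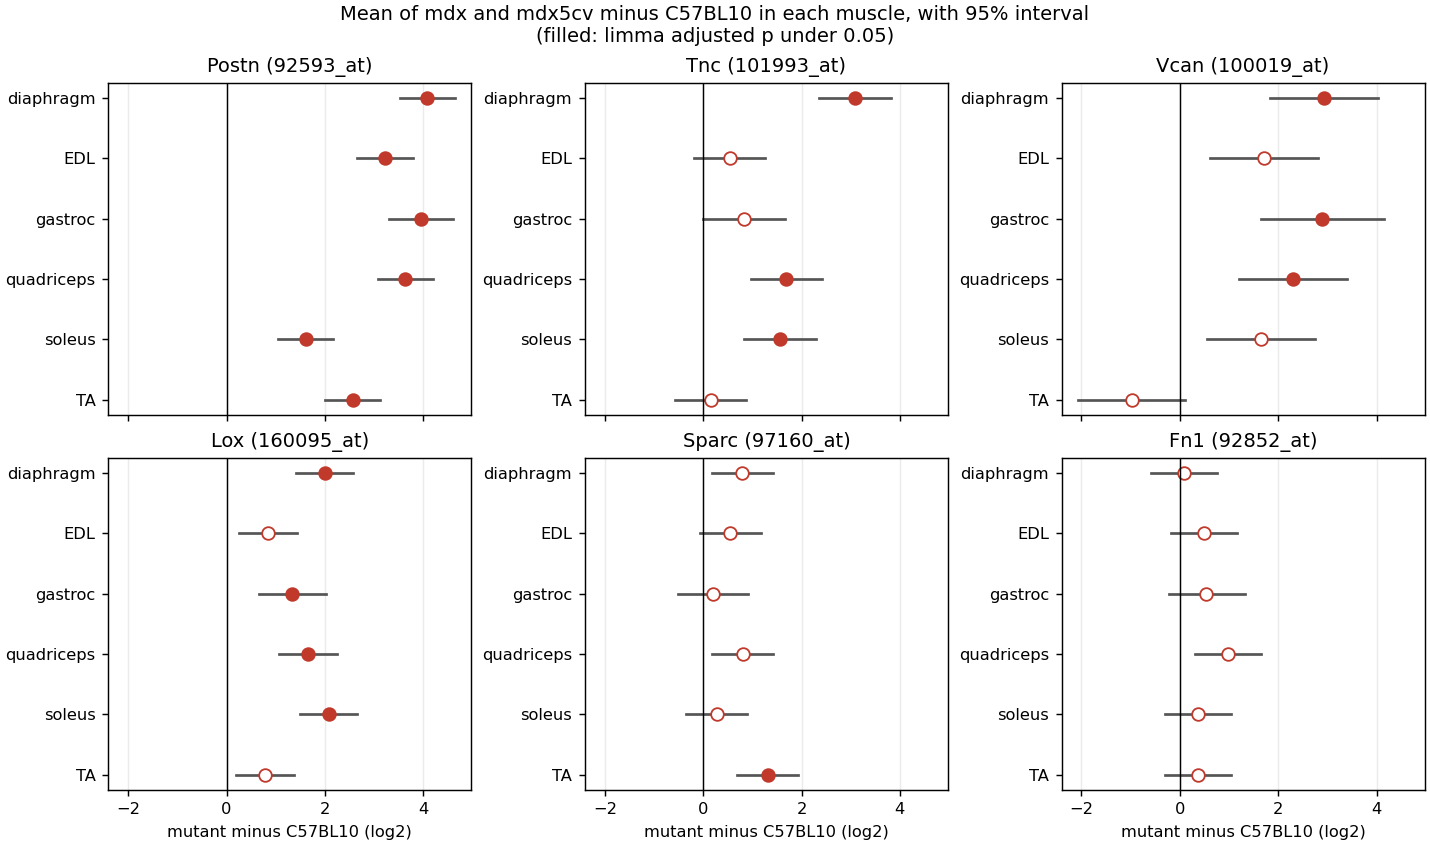
Mean of mdx and mdx5cv minus C57BL10 (log2) in each muscle with its 95% interval; filled points have a limma adjusted p under 0.05. Postn is lowest in the soleus (1.61), Tnc is highest in the diaphragm (3.08), and Vcan lies below 0 in the TA (-0.98).

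The members also differed between the muscles of C57BL10 mice. Postn was higher in the soleus than in the mean of the other 5 muscles by 2.07 ± 0.24 (log2 ± SE, limma adjusted p = 7.3e-06), a contrast that passed upward in 1.29% of tested probe sets. Lox was higher in the EDL by 1.27 ± 0.25 (limma adjusted p = 0.0055, background 0.389%) and lower in the diaphragm by a difference of -1.05 ± 0.25 (adjusted p = 0.0048). Tnc was also lower in the diaphragm (-0.98 ± 0.31, adjusted p = 0.033), where 8.51% of probe sets were lower. In the C57BL10 diaphragm the liver markers summed to 419853 to 422345, against 6608 to 53419 in the other C57BL10 muscles, and the muscle fibre markers to 302376 to 308966, against 448063 to 968949. The part of these transcripts in the lower Lox and Tnc signals was not tested. In the TA Vcan was higher (1.96 ± 0.47, adjusted p = 0.022, background 2.44%) and Sparc lower (-1.41 ± 0.27, adjusted p = 0.0042, background 4.15%). Without the low-correlation C57BL10 TA sample 2 these TA values were 2.03 (adjusted p = 0.22) and -0.71 (adjusted p = 0.48). The Lox call in the EDL was lost without either of its arrays (1.34, adjusted p = 0.099, and 1.21, adjusted p = 0.17), that in the diaphragm without C57BL10 diaphragm sample 1 (-0.86, adjusted p = 0.18), and that of Tnc without any of 4 arrays (adjusted p up to 0.23) and without the arrays of conflicting strain text (adjusted p = 0.069). With the period as a block the values were 2.02 for Vcan (adjusted p = 0.47), -0.62 for Sparc (0.82), -0.69 for Tnc (0.33) and -1.17 for Lox in the diaphragm (0.053). The C57BL10 soleus level of Postn passed in each of these fits. The fit with the period block also lacked C57BL10 TA sample 2 and C57BL10 diaphragm sample 2. In these muscles the part of the period cannot be told apart from that of the arrays left out. No member passed in the gastroc, where 0.872% of probe sets did, or in the quadriceps, where 1.03% did. Postn was at -0.89 in the gastroc (limma unadjusted p = 0.0013, adjusted p = 0.11). Since the C57BL10 arrays enter both the level of a muscle and its difference from the mutants, the 2 contrasts are not independent.

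The related lists are described by their counts of genes, beside the 10% of all tested probe sets that rose in mdx and the 10.5% in mdx5cv. Each gene stands for its probe set with the highest mean signal, and its other probe sets are not described here. Of 22 other matricellular genes 16 were tested, and 3 rose in mdx and 6 rose and 1 fell in mdx5cv, with medians of 0.12 and 0.32. Ccn4 (WISP1, a secreted CCN protein) rose by 1.39 ± 0.23 in mdx (limma adjusted p = 1.0e-04), with 1.13 ± 0.23 in mdx5cv (adjusted p = 9.9e-04). Mgp, matrix Gla protein, an inhibitor of calcification, rose by 0.58 ± 0.12 (adjusted p = 0.0011) and 0.92 ± 0.12 (adjusted p = 3.6e-06). Ccn3 rose in mdx5cv (1.08 ± 0.27, adjusted p = 0.0073) with 0.26 ± 0.27 in mdx (adjusted p = 0.55). Spock2, a testican proteoglycan of the SPARC family, fell in mdx5cv (-1.34 ± 0.33, adjusted p = 0.006) and was at -0.67 ± 0.33 in mdx (adjusted p = 0.18).

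Of 18 crosslinking and collagen processing genes 10 were tested, and 2 rose in mdx and 3 in mdx5cv (medians 0.26 and 0.21). Serpinh1, the collagen chaperone HSP47, rose by 1.35 ± 0.16 in mdx (limma adjusted p = 1.1e-06), with 1.03 ± 0.16 in mdx5cv (adjusted p = 5.4e-05). Bmp1, a procollagen C-proteinase that also activates lysyl oxidase, rose by 0.60 ± 0.17 (adjusted p = 0.02) and 0.62 ± 0.17 (adjusted p = 0.017), and Pcolce, its enhancer, by 0.56 ± 0.12 in mdx5cv (adjusted p = 0.0014) with 0.33 ± 0.12 in mdx (adjusted p = 0.056). The Bmp1 call in mdx was lost without C57BL10 soleus sample 2 (adjusted p = 0.051), and that in mdx5cv with quantile normalization (0.51, adjusted p = 0.14) and without the arrays of conflicting strain text (0.42, adjusted p = 0.2). All 4 tested elastic fibre genes of 12 rose in both mutants (medians 1.08 and 1.31). These were Eln, elastin itself (1.32 ± 0.18, adjusted p = 1.1e-05, and 1.40 ± 0.18, adjusted p = 5.2e-06), and the microfibril genes Mfap2 (1.18 and 1.23), Mfap4 (0.97 and 1.40) and Mfap5 (0.71 and 1.16).

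Of 17 receptor genes 9 were tested and 4 rose in both mutants (medians 0.41 and 0.26). Stab1, a scavenger receptor that takes up SPARC, rose by 1.37 ± 0.16 in mdx (limma adjusted p = 5.7e-07), with 1.38 ± 0.16 in mdx5cv (adjusted p = 4.9e-07). Anxa2, a cell surface protein that binds tenascin-C, rose by 1.25 ± 0.15 (adjusted p = 1.1e-06) and 1.29 ± 0.15 (adjusted p = 6.4e-07). The integrin subunit Itgav rose by 0.73 ± 0.18 (adjusted p = 0.0064) and 0.78 ± 0.18 (adjusted p = 0.0038), and the syndecan Sdc2 by 0.51 ± 0.13 (adjusted p = 0.011) and 0.60 ± 0.13 (adjusted p = 0.0026). Of 13 genes of hyaluronan and versican turnover Has3 and Hyal2 were tested, and neither passed. Within the third scanning period 8 of the 12 calls in mdx and 8 of the 15 in mdx5cv named here were lost and no sign changed. With the period as a block Itgav, Mfap4 and Sdc2 lost the call in mdx and Itgav in mdx5cv. Without the arrays of conflicting strain text Mfap4 lost it in mdx (0.97, adjusted p = 0.051) and Itgav in mdx5cv (0.65, adjusted p = 0.053). Without diaphragm and TA Itgav lost it in mdx (0.59, adjusted p = 0.094), and Ccn3 (0.98, adjusted p = 0.062) and Itgav (0.48, adjusted p = 0.19) lost it in mdx5cv.

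**Figure D4:**
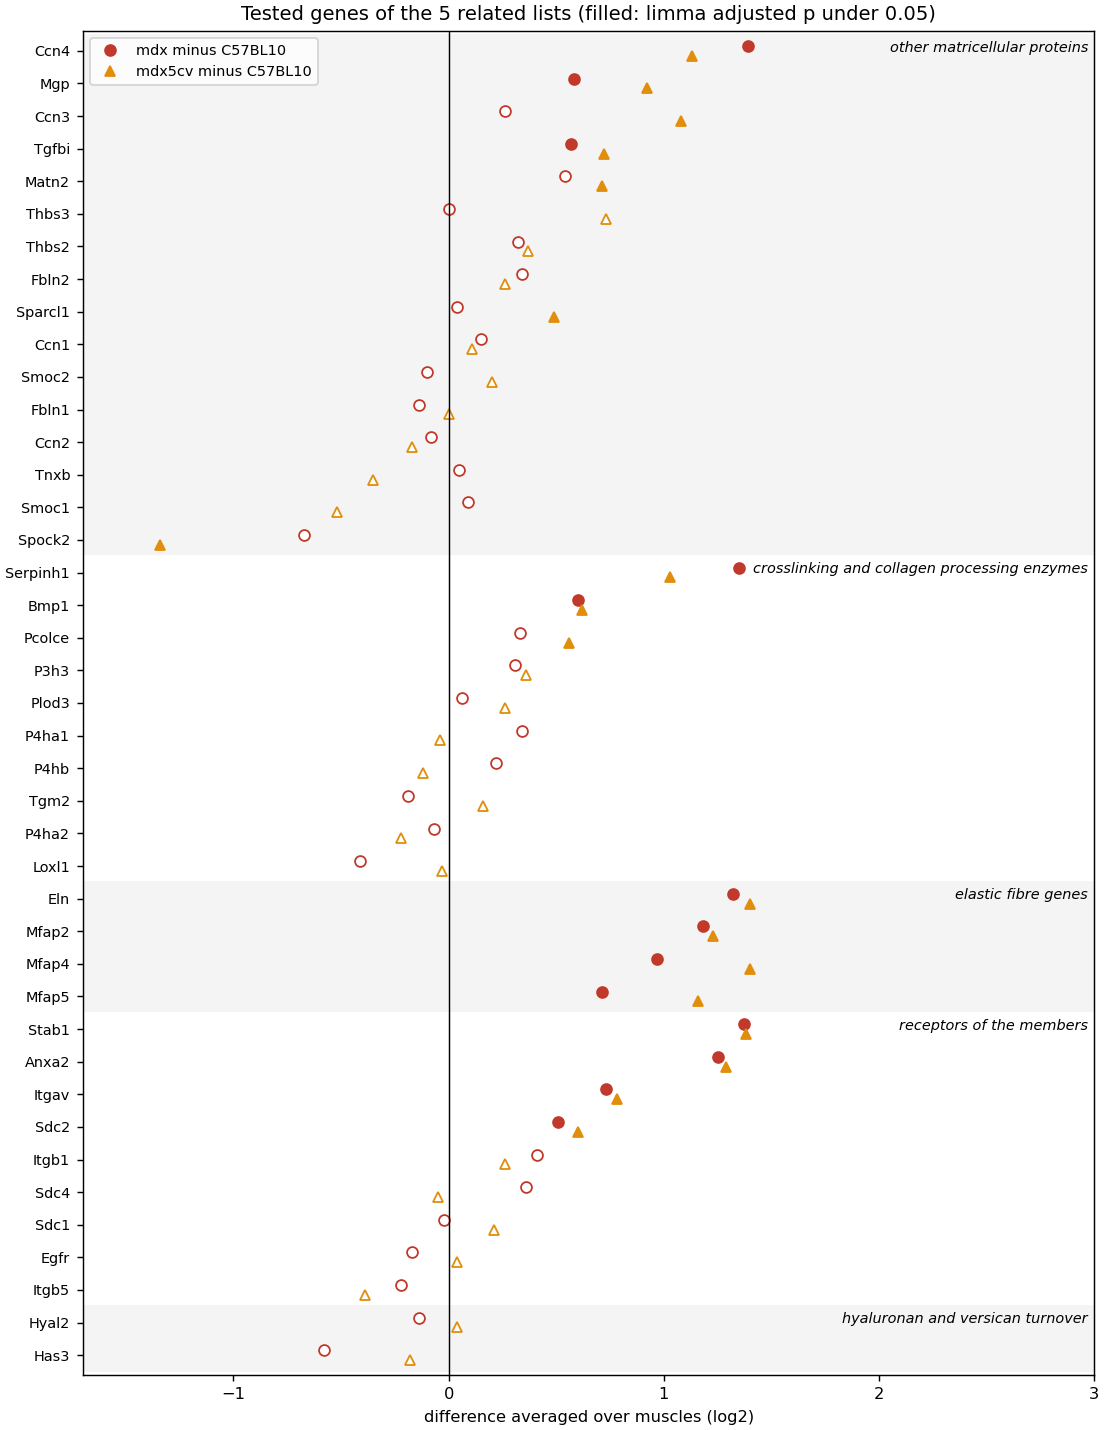
Log2 difference averaged over the muscles for the tested genes of the 5 related lists, with mdx as circles and mdx5cv as triangles; filled points have a limma adjusted p under 0.05. All 4 elastic fibre genes lie between 0.71 and 1.40, while the other lists spread on both sides of 0.

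Likeness of pattern was measured as Pearson's r of log2 signal over the 18 group means, among 5695 tested genes. All points share the strains, the muscles and the arrays, so r is given as a description. Nearest to Postn were Ptpre (0.951), Myh3 (0.946), the embryonic myosin heavy chain, and Anxa2 (0.94). Nearest to Tnc were Tgfbi (0.921), Myh8 (0.898), the perinatal myosin heavy chain, and C1qtnf3 (0.874). Nearest to Vcan were Mest (0.89), Maged2 (0.89) and Rrm2 (0.879), a subunit of ribonucleotide reductase, and nearest to Lox were Cyrib (0.961), Marcks (0.936) and Adam10 (0.926). Sparc was most like Rab11a (0.866), Ddx50 (0.854) and Nsa2 (0.844), and Fn1 most like Akr1b8 (0.82), Timp1 (0.815), an inhibitor of matrix metalloproteinases, and Chrng (0.783), the fetal subunit of the acetylcholine receptor. Among the members themselves r ran from 0.80 between Postn and Vcan to 0.13 between Sparc and Fn1.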

How the data were processed

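RNA pools were hybridised to MG_U74Av2 arrays. The deposited values are intensities (signals), scaled by the authors so that the mean of each array without its highest and lowest 2% lay between 1500.4 and 1501.3, as the values themselves show. The sources used here do not give the software that made them. Median signals were 458 to 1026.3. Precision is limited by the number of arrays. Samples were grouped by title and source name. Probe sets were named from the platform annotation.

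Signals were raised to a floor of 118 (the 20th percentile) and log2-transformed. Of 12422 non-control probe sets, 7453 with a mean log2 signal over all 34 arrays of at least 8.45 (the 40th percentile) were tested. One limma fit (limma 3.58.1, R 4.3.3, eBayes with an intensity trend) had 18 group means over 34 arrays. Benjamini-Hochberg adjustment was done per contrast over all tested probe sets (threshold 0.05), and averages over muscles weight the 6 muscles equally. A fold is 2 to the power of the log2 difference, and intervals are at 95%. The fit was tested on simulated data.

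All tested probe sets of the members were named. Related genes, markers and genes compared by r were each represented by the probe set with the highest mean signal. Of each related list up to 4 genes past the threshold with the largest mean difference were named, and for each member the 3 genes with the highest r. The members and lists were chosen with earlier results of these data known. Alternatives were quantile normalization, no filter, a floor at the 5th percentile, no trend, sample number or scanning period as a block, the third period alone, all 36 columns, and fits without single arrays, low-correlation arrays, diaphragm and TA, or arrays of conflicting strain text. The last, the single mutants in the TA and all alternatives of the related genes were added after the data were seen. Scanning periods are runs of scan times separated by over 30 days, per the experiment files. Fits with the period as a block used the arrays with such a file and joined the fourth period to the third. The third period alone was fitted with effects of strain and muscle rather than with group means. Figures were drawn with matplotlib 3.10.9.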

Additional observations from a re-analysis of the deposited data

Results flagged for a closer look

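For 3 members the difference between mutant and C57BL10 muscle was not the same in every muscle, by a joint F test over the 6 muscles. The limma adjusted p was 0.0066 for Postn, 0.02 for Tnc and 0.046 for Vcan. With quantile normalization it was 0.083 for Postn, 0.029 for Tnc and 0.62 for Vcan, so only Tnc passed in that setting. In Vcan the TA lay apart, with a difference of -3.28 (log2) from the mean of the other 5 muscles. In Tnc the diaphragm lay apart, with 2.13. In Postn the soleus lay apart, with -1.88. The C57BL10 level of the same muscle also stood apart in each case, higher for Vcan in the TA and Postn in the soleus and lower for Tnc in the diaphragm, and these levels enter the differences. C57BL10 TA sample 2, which has the low correlation and a raised low end of its signals, is 1 of the 2 C57BL10 arrays behind the Vcan value in the TA. Without it the Vcan value was -3.35 (adjusted p = 0.043), while the joint test of Vcan (adjusted p = 0.2) and the higher C57BL10 level in the TA (2.03, adjusted p = 0.22) missed the threshold. Without C57BL10 soleus sample 1 or 2 the Postn value was -1.98 (adjusted p = 0.091) or -1.79 (adjusted p = 0.23). Without C57BL10 diaphragm sample 1 or 2 the Tnc value was 2.16 (adjusted p = 0.19) or 2.10 (adjusted p = 0.18).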

How the results depend on the processing

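Of 7210 values of single member probe sets under 43 alternative settings, 7014 stayed on the same side of the threshold, 156 lost a call, 40 gained one, and no called value changed its direction. Most of these values had no call in the main fit, so the count of 7014 does not measure how firm the calls are. Over fits without 1 array (32 in turn) the count of members called was 5 to 6 in mdx, 5 to 6 in mdx5cv, 0 between the mutants, 15 to 19 over the muscles (17 with all arrays), 2 to 5 for single-muscle responses (3), 4 to 9 for C57BL10 levels (6) and 1 to 4 for the joint test (3). In the third scanning period alone 1 member was called in mdx. With the period as a block 1 single-muscle response, 3 C57BL10 levels and 1 joint test were called. Without the arrays of conflicting strain text 1 response and 1 joint test were called, and with quantile normalization 1 joint test. The shares of all tested probe sets called in the alternative fits are not given here. Calls lost by the members thus cannot be told apart from calls lost among all probe sets. The causes were not tested. Deviations of sample 1 from its group mean had a median r of 0.051 over 120 pairs of groups (-0.362 to 0.619, 47 over 0.1). This neither shows nor excludes that sample numbers pair the samples. In the mutant diaphragm, EDL, quadriceps and soleus sample 1 was scanned in the second period and sample 2 in the third. Sample number and period cannot be told apart there. The replicate block gave 6 calls in mdx, 6 in mdx5cv, 0 between mutants, 18 over the muscles, 3 responses, 6 C57BL10 levels and 2 joint tests, where Vcan missed (adjusted p = 0.053). The joint test of Vcan also missed with quantile normalization (F = 3.04, limma adjusted p = 0.62), without the filter (0.091) and with the lower floor (0.082). It missed too without the low-correlation arrays (F = 5.52), with the period block (F = 2.76) and without the arrays of conflicting strain text (F = 5.86). In the main fit F was 7.24. The joint test of Postn missed with quantile normalization (0.083). Low signals limit Vcan and the dimmer Tnc probe set, whose C57BL10 arrays reach the floor, and groups of 1 or 2 arrays limit every comparison within a muscle.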
